A study of Mus musculus with 14 samples.

Results

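Epididymal fat of male mice with the genotype EKO after a Western diet was compared with the same fat of wild-type (WT) mice on a normal diet. The comparison takes 7 of the 14 arrays of the series, with 1 array per animal and its members chosen by the genotype and diet in the sample labels. The 4 Western-fed EKO animals are set against 3 normal-fed WT animals across 19937 genes, to ask how far Western-fed Apoe-null fat still differs from lean wild-type fat. The WT animals were C57BL6/J males given normal chow for 24 weeks from 8 weeks of age. The EKO animals, which the labels tie to apolipoprotein E on the C57BL6/J strain, had a Western diet with 42% anhydrous milk fat (Harlan TD88137) over the same 24 weeks from the same age. Both genotype and diet differ between these groups, so the 2 cannot be told apart in this comparison alone. The other groups of the series, used below for reference, are 3 Western-fed WT and 4 normal-fed EKO animals. The labels do not say how the EKO allele was made, in which cells it acts or whether the animals were littermates. They call the replicates biological.

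Apolipoprotein E is a protein on the surface of lipoproteins that binds receptors of the LDL receptor family, through which cells take up remnant particles. Mice without it accumulate remnant lipoproteins and cholesterol in plasma, and are widely used as a model of atherosclerosis. Adipocytes and macrophages both make the protein. In wild-type mice a long Western diet enlarges visceral adipocytes and is known to bring CD11c-positive, lipid-laden macrophages into the fat pad.

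The values are log2 expression after RMA, and all differences are Western-fed EKO minus normal-fed WT on that scale unless another pair is named. Probes of the adipocyte genes Adipoq, Plin1, Cidec, Fabp4 and Retn were bright in all 7 arrays, between 13.41 and 14.22, as the labelled tissue requires. Several arrays stood apart. The level of 1208 olfactory and vomeronasal receptor probe sets, taken here as background, was 6.75 to 6.84 in 5 arrays (WT normal replicate 1, WT Western replicate 1, EKO normal replicate 2 and EKO Western replicates 1 and 3) and 6.29 to 6.56 in the other 9. WT normal replicate 2 held immediate early transcripts well above the other 6 arrays compared, for example Egr1 at 11.76 against 8.11 to 9.20. WT Western replicate 1 held liver transcripts, with albumin (Alb) at 12.96 against 7.75 to 9.20 in the other 13 arrays. Fits without each array in turn are given where they move a result. Fits that take the array background into account are given for some results only. In bulk tissue, fewer cells of a type and less RNA per cell cannot be told apart.

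Apoe itself, the gene named by the genotype, was the 1 gene of 19937 that differed at a Benjamini-Hochberg adjusted p under 0.05 in limma (0.00502% of genes). Its level was 13.14, 13.61 and 13.46 in the normal-fed WT animals (replicates 1 to 3, the order used throughout) and 10.26, 9.84, 9.92 and 10.12 in the Western-fed EKO animals. The groups were far from overlapping. The difference was −3.37 ± 0.16 (SE; 95% interval −3.70 to −3.04; limma adjusted p 4.39e-08), a 10.3-fold lower level. Western-fed WT animals, at a mean of 13.39, and normal-fed EKO animals, at 9.74, sat on the same sides by genotype. The EKO level remained above the array background of at most 6.84, and which part of the transcript the probes read was not established here. Across the 19 alternative fits the Apoe difference lay between −3.56 and −3.27, and it passed in all 19.

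The 30 genes nearest to Apoe in reference gene order were also looked at. The array measured 20 of them and 0 passed (limma; 1 at an unadjusted p under 0.05), with a median difference of 0.00. The lowest was Apoc1, which encodes a small apolipoprotein from the same gene cluster, at −0.65, and the highest was Ceacam16, at 0.23. Nnt, a mitochondrial transhydrogenase gene that differs between related black-mouse substrains, was 9.01, 9.11 and 9.05 in the WT animals and 8.68, 8.90, 8.93 and 9.09 in the EKO animals, with overlapping groups and a difference of −0.16 ± 0.14 (SE; 95% interval −0.47 to 0.15).

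Below Apoe, the genes of smallest p did not pass, and the second-smallest adjusted p was 0.153 (limma). An unadjusted p under 0.05 was reached by 834 genes (4.18% of those tested), where 996.85 would be 5% of them. Of these 266 were higher in the Western-fed EKO animals (1.33%) and 568 lower (2.85%). Single arrays moved these counts: the total was 431 without WT normal replicate 3 (182 higher, 249 lower), 536 without EKO Western replicate 3 (345 lower) and 1337 without WT normal replicate 1 (989 lower), and 1634 with the replicate block, so the total has no fixed side of 996.85. The arrays of the groups did not overlap for 493 genes that were higher (2.47%) and 657 that were lower (3.3%). One alternative fit moved the count by much: with array weights, 256 genes passed, 100 higher (0.502%) and 156 lower (0.782%). These weights ran from 0.296 for WT Western replicate 1 to 6.84 for WT Western replicate 2, and gave EKO Western replicate 4 a weight of 4.10 against 0.313 for replicate 1. Among the normal-fed WT animals, replicate 3 had a weight of 2.75 against 0.729 and 0.75 for replicates 1 and 2. The other 18 fits passed 1 to 3 genes.

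Among the genes of smallest p with a positive difference, Hspb6, a small heat shock protein of smooth and cardiac muscle, stood first. It was 10.98, 10.33 and 10.79 in the WT animals and 11.77, 11.63, 11.63 and 11.64 in the EKO animals. The difference of 0.97 ± 0.15 (SE; 95% interval 0.64 to 1.29) exceeded the spread within either group, yet its limma adjusted p over all genes was 0.153. Apod, a lipocalin carried on HDL that binds small lipids, was 9.86, 9.68 and 9.49 against 10.91, 10.73, 10.92 and 10.71. Its groups lay clearly apart, at a difference of 1.14 ± 0.20 (SE; limma adjusted p 0.314). In the other groups Apod averaged 10.54 (Western-fed WT) and 11.06 (normal-fed EKO), so that normal-fed WT was the lowest of the 4 group means. Hspb6 had the same order at its low end, with means of 11.34 in Western-fed WT and 11.42 in normal-fed EKO.

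Lilra5, an activating leukocyte receptor, was 7.61, 7.51 and 7.60 in WT and 7.90, 8.16, 8.27 and 8.23 in EKO, without overlap (0.57 ± 0.10, SE; limma adjusted p 0.345). It was 1 of the few leading genes that also passed against Western-fed WT, at 0.38 higher (limma adjusted p 0.0462). Lpcat3, an enzyme that puts polyunsaturated chains into membrane phospholipid and is a target of the oxysterol receptor LXR, was 11.46, 11.64 and 11.73 against 12.09, 12.38, 12.43 and 12.20 (0.67 ± 0.13, SE; limma adjusted p 0.345). Abcg1, the transporter that passes cellular cholesterol to HDL and another LXR target, was 10.14, 9.28 and 9.76 against 11.09, 10.76, 10.60 and 11.06. Both lipid genes were without overlap, and the Abcg1 difference was 1.15 ± 0.23 (SE; 95% interval 0.66 to 1.65; limma adjusted p 0.402). Western-fed WT animals had an Abcg1 mean of 10.85, and the Western-fed EKO mean differed from it by 0.03 (95% interval −0.47 to 0.52).

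On the lower side, Hp, which encodes the haemoglobin-binding acute phase protein haptoglobin and is abundant in fat, was 12.94, 13.41 and 13.37 in WT and 11.66, 12.55, 12.09 and 12.23 in EKO. Every EKO array lay under every WT array, at a difference of −1.11 ± 0.21 (SE; 95% interval −1.55 to −0.66; limma adjusted p 0.345). Hp did pass with the array background as a block and as a covariate, 1 of 2 genes in each of those fits. Against Western-fed WT animals, whose mean was 13.64, Hp was lower by a tested −1.51 (limma adjusted p 0.001). Gabre, a GABA-A receptor subunit, had a difference of −0.72 ± 0.14 and Stk26, a kinase of the sterile-20 family, one of −0.62 ± 0.12 (SE; limma adjusted p 0.345 and 0.402), neither with overlap. Mrgprb1, a receptor of the Mrgpr family, was 7.21, 7.40 and 7.30 against 6.69, 6.69, 6.95 and 6.94. Its EKO mean lay at array background, so the size of its difference (−0.49 ± 0.10, SE) is uncertain.

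**Figure D1:**
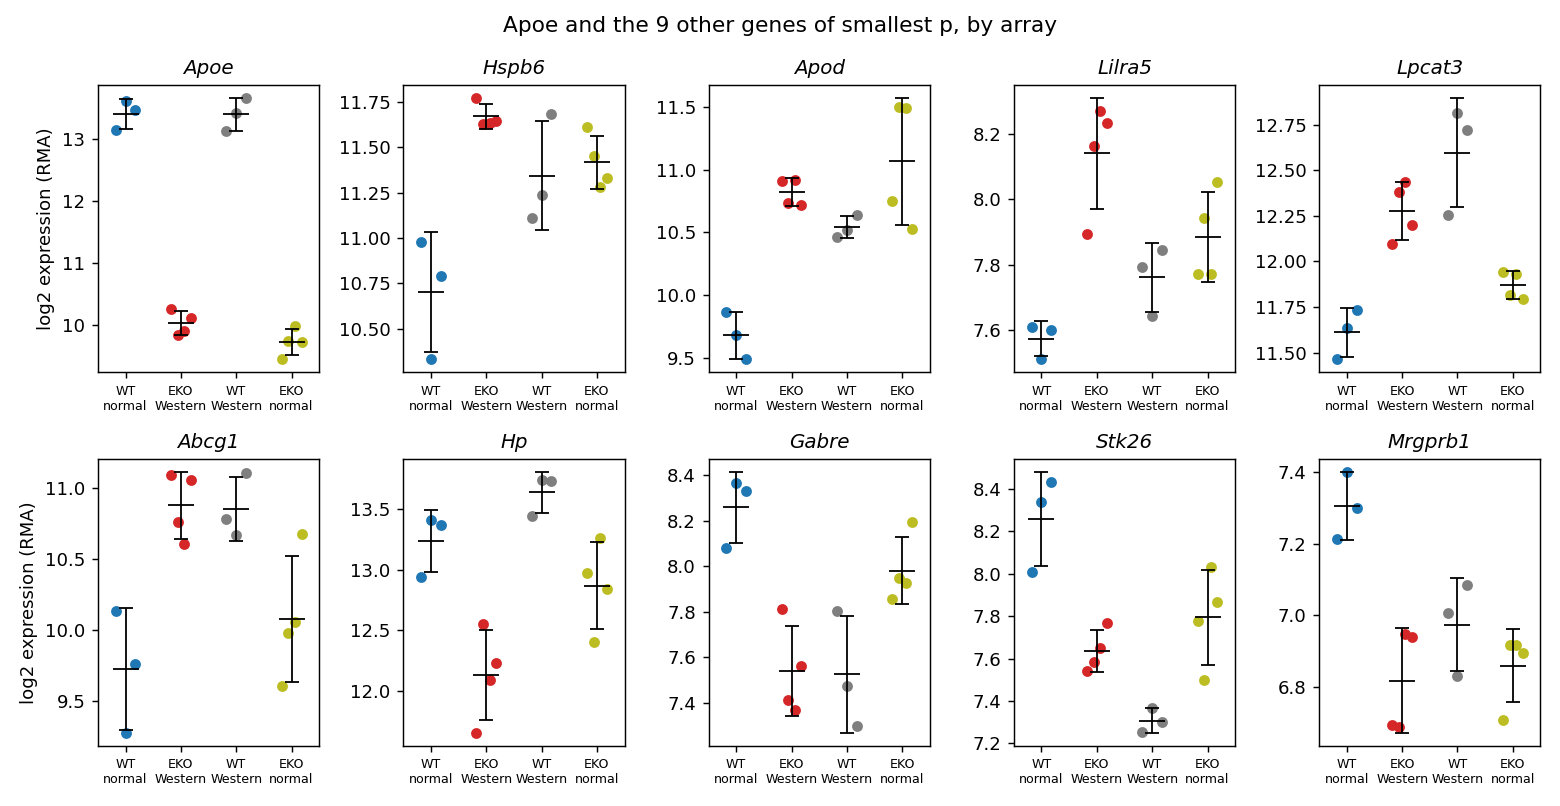
Log2 expression (RMA) of Apoe and the 9 other genes of smallest p, 1 point per array in the 4 groups, with the group mean and SD as black bars; each panel has its own vertical scale, which does not start at 0. Apoe separates by genotype (means near 13.4 in both WT groups), while the normal-fed WT arrays lie on one side of all Western-fed EKO arrays in the other 9 panels, none of which passed over all genes.

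Differences in the Western-fed EKO fat were small for most genes. The median size was 0.08, and 99% of genes differed by less than 0.49. There were 13 genes that differed by more than 1, which is more than 2-fold, with 4 positive and 9 negative differences. The number was 45 without WT normal replicate 1 and 12 to 18 without any 1 of the other 6 arrays. For 19686 genes (98.7%) the 95% interval excluded a 2-fold difference, and for 17939 (90.0%) it excluded a 1.5-fold difference, each read gene by gene with no correction for their number. With 1 array left out these shares were 97.6% to 98.7% and 80.2% to 89.7%. The 2-fold share was also 95.7% for Western-fed EKO against Western-fed WT, where 1134 genes passed. It was 95% for Western-fed against normal-fed WT, where 1094 passed, so a high share alone does not mark groups as alike. The same 4 EKO arrays set against the 3 Western-fed WT arrays, with the same standard error per gene (median 0.12), had 236 genes past 2-fold (362 without WT Western replicate 1) and 1134 that passed (5.69%), 326 higher (1.64%) and 808 lower (4.05%). That count tests, gene by gene, for a difference between the Western-fed groups, whichever side of lean WT each lies on. It ranged from 316 to 2108 when 1 array was left out, without WT Western replicate 3 and without WT Western replicate 1 respectively, and was 430 without WT Western replicate 2, 652 without EKO Western replicate 4 and 727 without EKO Western replicate 1.

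The Western-fed EKO animals set against normal-fed EKO animals gave 0 genes that passed in limma (0%; 883 at an unadjusted p under 0.05; 8 with array weights). Normal-fed EKO against normal-fed WT gave 1 gene, Apoe (0.00502%). Western-fed against normal-fed WT gave 1094 genes (5.49%), 636 higher (3.19%) and 458 lower (2.3%), and 296 genes lay past 2-fold. Each of these shares arrays with the comparison described here.

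**Figure D2:**
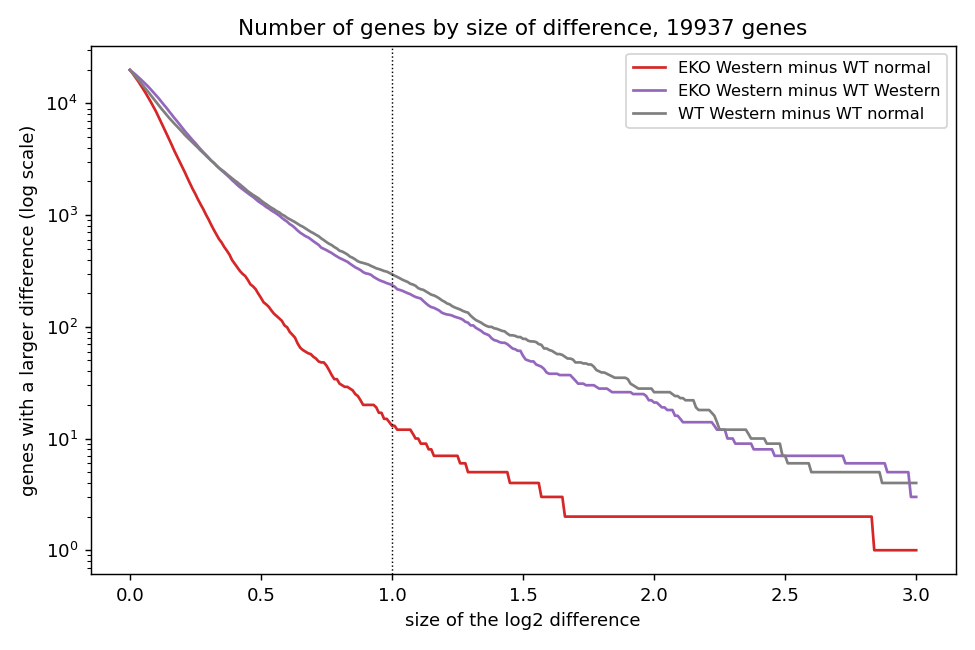
Number of genes (vertical log axis) whose log2 difference is larger in size than the value on the horizontal axis, for Western-fed EKO minus normal-fed WT (red), Western-fed EKO minus Western-fed WT (purple) and Western-fed minus normal-fed WT (grey). At the dotted line, a 2-fold difference, the curves stand at 13, 236 and 296 genes.

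Of the 12 genes other than Apoe past 2-fold, several rested in part on uneven arrays among the normal-fed WT animals. Cyp2f2, a cytochrome P450, was 10.34, 12.48 and 11.21 in WT and 8.17, 8.67, 8.70 and 8.48 in EKO, without overlap and with a WT spread of more than 2 log2 units. Its difference was −2.84 ± 0.73 (SE; 95% interval −4.39 to −1.29; limma adjusted p 0.691), and in normal-fed EKO animals the same gene ran from 8.89 to 13.07. Pon1, a paraoxonase carried on HDL, was 7.04, 9.86 and 8.10 against 6.71, 7.09, 6.93 and 6.80 (−1.45), with overlap. Trabd2b, a metalloprotease that cleaves Wnt proteins, was more even, at 11.05, 10.66 and 11.27 against 9.12, 9.93, 10.10 and 9.69 (−1.29 ± 0.27, SE; limma adjusted p 0.484). Jchain, the joining chain of secreted antibodies, was 7.82, 9.88 and 8.97 against 7.46, 8.06, 7.83 and 7.88, with overlap (−1.08). Without WT normal replicate 2, Pon1 stood at −0.68 and Jchain at −0.59. Scd2, a fatty acid desaturase, was 12.35, 10.80 and 11.60 in WT and 11.94, 13.16, 13.23 and 13.04 in EKO, where replicate 1 fell within the WT range (1.26 ± 0.34, SE; limma adjusted p 0.782). Egr1 and Ccn1, both immediate early genes, were highest in WT normal replicate 2 (differences of −1.57 and −1.02, and −0.64 and −0.50 without that array). Srsy (1.07; 0.62 without EKO Western replicate 3, 0.70 without WT normal replicate 2 and 1.72 without WT normal replicate 1), Snord118 (−1.66; −2.54 without WT normal replicate 1), Hp, Apod and Abcg1 complete the set.

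A set of 26 genes reported for their response to the Western diet in WT fat was followed into the Western-fed EKO animals. They were chosen for moving between Western-fed and normal-fed WT animals, a comparison that shares the normal-fed WT arrays, so their values are a description and not independent evidence. None of the 26 passed in Western-fed EKO against normal-fed WT, and 6 had an unadjusted p under 0.05, 1 higher and 5 lower (1.33% and 2.85% of all genes). The 5 became 2 without WT normal replicate 3, and 3 without WT normal replicate 2 or EKO Western replicate 3. For 10 of the 26 the 95% interval excluded a 2-fold difference. In the direct test against Western-fed WT, 23 of the 26 passed, 9 higher and 14 lower in EKO (1.64% and 4.05% of all genes). That test reuses the Western-fed WT arrays by which the 26 were chosen, so the choice favoured its outcome. The same holds for each difference from Western-fed WT given for these genes below.

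Itgax, which encodes the CD11c integrin of recruited macrophages, was 8.05, 7.72 and 7.95 in lean WT and 8.09, 8.01, 8.12 and 7.91 in Western-fed EKO. The groups overlapped, with a difference of 0.13 (95% interval −0.21 to 0.46), while Itgax was lower than in Western-fed WT by a tested −2.02 (limma adjusted p 8.06e-06). Mki67, a marker of dividing cells, was 7.72, 7.83 and 7.93 against 7.92, 7.81, 8.07 and 7.77, with overlap (0.06; 95% interval −0.18 to 0.31) and a tested −1.26 to Western-fed WT (limma adjusted p 4.07e-05). Adgrg2, an adhesion G protein-coupled receptor, was 10.58, 10.56 and 10.75 against 10.30, 10.66, 10.58 and 10.54 (−0.11; 95% interval −0.45 to 0.23), and was 2.04 higher than in Western-fed WT (limma adjusted p 8.06e-06). Pck1, the enzyme of glyceroneogenesis, was 12.99, 13.07 and 13.22 against 13.30, 13.02, 13.16 and 13.27 (0.10; 95% interval −0.34 to 0.53), and 1.48 higher than in Western-fed WT (limma adjusted p 0.000899). Those 4 genes overlapped between lean WT and Western-fed EKO, with intervals that exclude a 2-fold difference.

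For other diet genes the interval was too wide to exclude a 2-fold difference. The lysosomal proton pump subunit Atp6v0d2 ran from 7.42 to 8.20 in lean WT and from 7.46 to 8.99 in Western-fed EKO, with a difference of 0.24 (95% interval −0.68 to 1.16) and a tested −3.47 to Western-fed WT (limma adjusted p 0.000432). Lipf, gastric lipase, gave 0.42 (95% interval −0.52 to 1.36), and Slc5a7, the choline transporter, 0.38 (95% interval −0.57 to 1.34). Both were lower than in Western-fed WT, by −3.23 and −2.89 (limma adjusted p 0.000884 and 0.00201). Fam13a, a gene with variants tied to fat distribution, was 0.14 from lean WT (95% interval −0.74 to 1.02) and 2.73 above Western-fed WT (limma adjusted p 0.00168).

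A few diet genes stood between lean and Western-fed WT. Lctl, a klotho-related protein, was 9.21, 8.52 and 9.32 in lean WT and 9.42, 9.91, 9.89 and 9.90 in Western-fed EKO, without overlap, and averaged 11.88 in Western-fed WT. Its difference from lean WT was 0.76 (95% interval 0.12 to 1.41; unadjusted p 0.0231, limma adjusted p 0.981). Rnf144b, a ubiquitin ligase, was 10.65, 10.90 and 11.19 in lean WT and between 9.94 and 10.42 in Western-fed EKO (−0.76; 95% interval −1.17 to −0.36; limma adjusted p 0.648), with 9.42 on average in Western-fed WT. Thbd, the endothelial thrombin receptor thrombomodulin, was 11.43, 12.05 and 12.16 against 10.67, 11.33, 11.12 and 11.28 (−0.78; limma adjusted p 0.981). Neither Rnf144b nor Thbd overlapped, and both lay on the side of Western-fed WT. In the arrays of lower background alone Thbd passed, 1 of 3 genes that did. Dennd2d, a Rab exchange factor, gave −0.60 and Agt, angiotensinogen, −0.44, both with overlap, and both were higher than in Western-fed WT by tested differences of 1.83 and 1.41 (limma adjusted p 0.000359 and 0.000568). The remaining diet genes (Acsm3, Ces1f, Cdkl4, Gpnmb, Gpr50, Mmp12, Prune2, Saa3, Slc43a1, Sycp3, Timp1, Tst and the mesothelial Upk1b) differed from lean WT by −0.76 to 0.54.

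**Figure D3:**
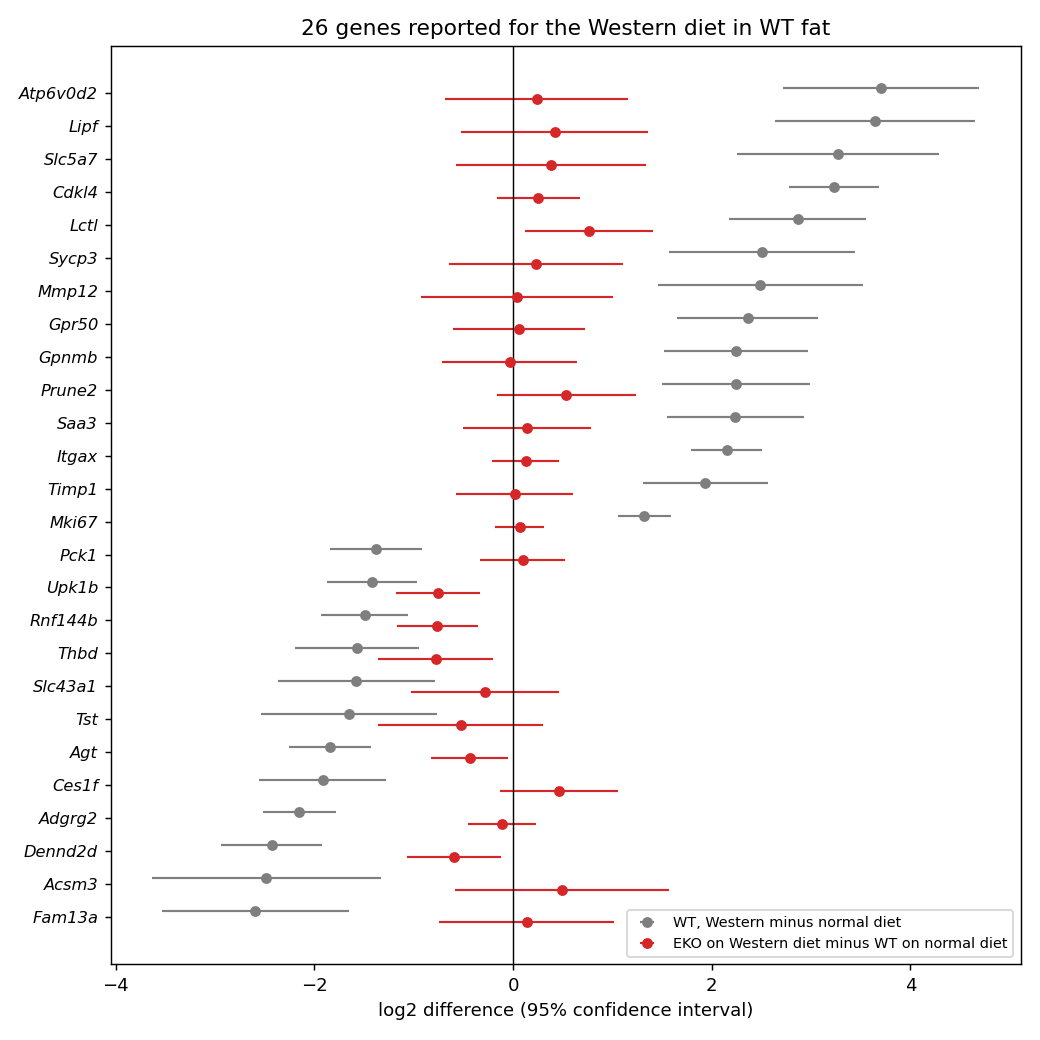
Log2 difference with its 95% confidence interval for 26 genes chosen for their diet response in WT fat: Western-fed minus normal-fed WT (grey) and Western-fed EKO minus normal-fed WT (red), both against the same normal-fed WT arrays. The red points lie between −0.78 (Thbd) and 0.76 (Lctl), and 10 of the red intervals lie within 1 of 0.

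Gene lists that describe fat, its lipid traffic and its other cells are given next by role, 47 in all. Apart from Apoe, 0 members passed in limma, so members are counted at an unadjusted p under 0.05, to be read against 1.33% of all genes higher and 2.85% lower, and no test was run on a list. Leaving out 1 array moved many of these counts, and moves of 2 or more members that change a count by over 1.5 times are given with the list. Medians moved by at most 0.16 without any 1 array, except for the mesothelium (0.19) and the immediate early genes (0.46). Medians are to be read against 0.00 over all genes. Fits that take the array background into account also moved lists and are given only in part. For example, in the arrays of lower background 6 matrix proteases were lower instead of 2, and 8 immediate early genes instead of 5 (3.68% of all genes). With the background block 5 macrophage genes were higher instead of 2 (2.38% of all genes). The lipogenesis median was 0.21 instead of −0.01 in the arrays of lower background. Where members are said to have passed against Western-fed WT, the background is 1.64% higher and 4.05% lower.

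Lipoprotein genes come first. Of the 9 apolipoproteins measured, Apod was higher, and Apoe and clusterin (Clu, −0.34; limma adjusted p 0.981) were lower. The lipoprotein uptake list, 12 receptors and partners, had 0 members at that threshold and a median of −0.05. There Scarb1, the HDL receptor, stood at 0.34 (95% interval −0.03 to 0.72) and the sorting receptor Sort1 at −0.14. The cholesterol synthesis list also had 0 of 20, with a median of −0.05. Srebf2, the factor that drives this pathway when sterols are low, was −0.30 (95% interval −0.65 to 0.04), and the synthesis enzyme Hsd17b7 was 9.01, 8.78 and 9.09 against 8.29, 8.56, 8.81 and 8.77, overlapping at −0.35. Set against Western-fed WT, 9 of the 20 synthesis genes were lower and 0 higher, with Hsd17b7 at −1.47 (limma adjusted p 0.00168).

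The cholesterol efflux and storage list had the most members at small p among these lists. Of its 14 genes 4 were higher and 0 lower, Abcg1 and Lpcat3 among them, with a median of 0.12. The 4 became 3 to 5 over the alternatives. With array weights Abcg1, Mylip and Lpcat3 passed as higher, where 0.502% of all genes did. Mylip encodes the LXR-induced ligase that degrades the LDL receptor. In the direct test against Western-fed WT, 1 of the 14 was higher and 4 lower.

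Adipocyte genes differed little. The adipocyte identity list (17 genes) had a median of 0.01, 1 member higher and 1 lower. Trarg1, a partner of the GLUT4 glucose transporter, was 12.36, 12.14 and 12.47 against 12.56, 12.57, 12.74 and 12.81, without overlap (0.34; limma adjusted p 0.981). Acvr1c, which encodes the activin-type receptor ALK7, was −0.41 from lean WT and 0.67 above Western-fed WT (limma adjusted p 0.0272). Leptin (Lep), whose mRNA tracks adipocyte size, was 12.72, 12.30 and 12.53 in lean WT and 11.72, 12.21, 12.48 and 12.32 in Western-fed EKO. The Lep groups overlapped, with a difference of −0.34 ± 0.26 (SE; 95% interval −0.89 to 0.21), and Lep was lower than in Western-fed WT by a tested −1.14 (limma adjusted p 0.0178).

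Among 18 adipogenic regulators 0 were higher and 2 lower (0 lower without WT normal replicate 2), Cebpd (−0.42) and Rxra (−0.28), the first an early factor of adipocyte differentiation and the second the partner receptor of PPAR gamma. The 19 lipogenesis and triglyceride genes had 2 higher and 1 lower. Elovl5, an elongase of polyunsaturated fatty acids, was one of them, at 11.19, 11.09 and 10.97 against 11.35, 11.47, 11.26 and 11.46 (0.30 ± 0.08, SE; limma adjusted p 0.809). Lipolysis and droplet coat genes numbered 16, with 1 higher, the droplet protein Plin2, and a median of −0.03. Plin2 was 11.91, 11.87 and 11.90 against 12.19, 12.26, 12.28 and 12.27, without overlap (0.36; limma adjusted p 0.981), and lower than in Western-fed WT by a tested −0.73 (limma adjusted p 0.00284). Plin5, its relative of oxidative tissues, stood at 0.19. In the fatty acid transport list (12 genes) 2 were higher, Fabp5 (0.55), a fatty acid carrier shared with macrophages, and the acyl-CoA synthetase Acsl5 (0.28); that count was 0 without WT normal replicate 3, EKO Western replicate 2 or EKO Western replicate 4.

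Among mitochondrial lists, fatty acid oxidation had 1 of 18 higher, the trifunctional protein subunit Hadhb (0.23), and a median of 0.10, while the peroxisomal Ehhadh stood at 0.50 (95% interval −0.11 to 1.11). Without WT normal replicate 2, the array with high immediate early genes, 7 of the 18 were higher and the median was 0.23, and without EKO Western replicate 1 the count was 3. Of 21 respiratory chain genes 0 were at the threshold (median 0.01), and all 21 had intervals that exclude a 2-fold difference; Sdhb and Cyc1, of complexes II and III, were −0.23 and −0.20. Brown and beige fat genes had 1 of 15 higher, Cox8b, a cytochrome oxidase subunit of brown fat, at 9.17, 10.11 and 9.64 against 10.03, 10.82, 10.40 and 10.32, with overlap (0.76; limma adjusted p 0.981); Cidea was 0.19. Branched-chain amino acid breakdown had 1 of 17 higher, Bckdhb, a subunit of the dehydrogenase that commits these amino acids to breakdown, at 11.49, 11.59 and 11.31 against 11.74, 11.75, 11.59 and 11.81 (0.26; limma adjusted p 0.981); 0 were lower, or 3 without WT normal replicate 1. Against Western-fed WT 7 of these 17 were higher and 0 lower, Bckdhb by 0.75 and the acyl-CoA dehydrogenase Acadsb by 0.49 (limma adjusted p 0.000581 and 0.0455). Acadsb was −0.27 from lean WT.

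Insulin signalling genes numbered 18, with 2 lower (5 without WT normal replicate 1, 4 without EKO Western replicate 2). They were Grb14, an adaptor that inhibits the insulin receptor (−0.53), and Foxo1, the transcription factor that insulin restrains, at 11.27, 11.07 and 11.27 against 10.83, 10.84, 10.81 and 11.03 (−0.33 ± 0.11, SE; limma adjusted p 0.981). Among 16 genes of glucose use 1 was higher, hexokinase 1 (Hk1), at 12.01, 11.87 and 11.80 against 12.19, 12.29, 12.35 and 12.19, without overlap (0.36 ± 0.08, SE; limma adjusted p 0.515). Averaged over its probe sets the Hk1 difference was 0.15. Ldhb stood at −0.25. Adipokines had 2 higher and 2 lower of 15, and 0 lower without WT normal replicate 2, WT normal replicate 3 or EKO Western replicate 3. Nrg4, a growth factor secreted by brown and white fat, was 11.08, 11.03 and 11.21 in lean WT and 11.72, 11.63, 11.55 and 11.88 in Western-fed EKO, without overlap (0.59 ± 0.13, SE; 95% interval 0.32 to 0.86; limma adjusted p 0.484). Nrg4 was also higher than in Western-fed WT, by a tested 1.10 (limma adjusted p 0.000263), which placed the Western-fed EKO mean above those of lean WT, Western-fed WT (10.60) and normal-fed EKO (11.47). Rarres2, chemerin, was 0.48, also without overlap.

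In Western-fed against normal-fed WT, 13 of 21 macrophage genes passed as higher and 1 as lower (3.19% and 2.3% of all genes). In Western-fed EKO against lean WT, 2 of the 21 were higher and 1 lower at the unadjusted threshold, with a median of 0.13. Mpeg1, the pore-forming perforin-2 of macrophages, was 8.21, 8.61 and 8.72 in lean WT and 8.78, 9.92, 9.45 and 9.24 in Western-fed EKO, without overlap (0.84; 95% interval 0.23 to 1.44; limma adjusted p 0.981). Mertk, the receptor for apoptotic cells, was −0.40. The direct test against Western-fed WT had 13 of 21 lower and 0 higher, Mpeg1 by −1.16 (limma adjusted p 0.0265). Lipid-associated macrophage genes, the programme of macrophages that take up lipid in fat, had 3 of 17 higher, Fabp5 and Plin2 among them, and a median of 0.09. That count was 1 without any of WT normal replicates 1 or 3 or EKO Western replicates 3 or 4, and was 2 without WT normal replicate 2 or EKO Western replicate 2. Against Western-fed WT, 10 of the 17 were lower and 0 higher. The mean level of the 17 genes ran from 10.11 to 10.32 in lean WT, from 10.22 to 10.36 in Western-fed EKO and from 11.18 to 11.41 in Western-fed WT. The resident macrophage list had 1 of 16 lower, the hyaluronan receptor Lyve1 (−0.56), which lymphatic vessels also make, and its other leading gene Retnla was −0.45 (95% interval −0.93 to 0.03).

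Other immune lists showed small counts. Chemokines and cytokines had 3 of 26 higher and 2 lower; the chemokine Ccl3 was 7.56, 7.30 and 7.37 against 8.16, 8.32, 8.00 and 7.64, without overlap (0.62; limma adjusted p 0.981), and its receptor Ccr1, at array background in EKO, −0.41. Without WT normal replicate 3 the counts were 1 higher and 0 lower, and without EKO Western replicate 2 there was 1 higher. Interferon-induced genes had 5 of 16 higher and 0 lower, with a median of 0.23 and 14 positive differences. Set against the same lean WT arrays, the median was 0.22 in Western-fed WT and 0.14 in normal-fed EKO. Between Western-fed EKO and Western-fed WT it was 0.00, and 0 members passed there. Oas1a, which senses double-stranded RNA, was 8.47, 8.70 and 8.54 against 8.86, 8.93, 8.77 and 8.73 (0.25), and Bst2, tetherin, 0.23, both without overlap. The 5 became 1 in the arrays of lower background and 9 after quantile normalization. It was 2 without WT normal replicate 1, WT normal replicate 2 or EKO Western replicate 2, and 3 without EKO Western replicate 3 or 4. MHC class II genes had 0 of 7 (3 higher without EKO Western replicate 1), with its regulator Ciita at 0.21 and H2-Aa at 0.31 (95% interval −0.08 to 0.70).

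In the T and NK cell list 2 of 18 were higher (5 without EKO Western replicate 4), Nkg7, a protein of cytotoxic granules, at 7.79, 7.79 and 7.60 against 7.94, 8.89, 8.59 and 7.94 (0.61), and the NK receptor Ncr1 (0.50), which was at array background in lean WT. B cells had 1 of 12 lower, Jchain, while 9 of the 12 differences were positive (median 0.04). The chemokine receptor Cxcr5 was at background. Mast cells and eosinophils had 5 of 15 lower and 0 higher, with a median of −0.14. The mean level of the 15 genes was 7.71 to 7.97 in lean WT and 7.61 to 7.66 in Western-fed EKO. It was similar to the latter in Western-fed WT (7.63 to 7.68) and normal-fed EKO (7.56 to 7.67), so lean WT lay apart from all other groups. Tpsb2, a mast cell tryptase, was 8.56, 9.35 and 9.24 against 8.51, 8.47, 8.49 and 8.61, overlapping through WT normal replicate 1 (−0.53; limma adjusted p 0.782); it passed without that replicate. The 5 became 3 without WT normal replicate 3. With array weights 4 passed as lower (Cpa3, Mcpt4, Tpsb2 and Mrgprb1), where 0.782% of all genes did. Neutrophil genes had 1 of 14 higher, the calprotectin subunit S100a9 (0.31), and 1 lower, the gelatinase Mmp9. Mmp9 was 8.83, 9.67 and 9.23 against 8.21, 8.49, 8.15 and 8.33, without overlap (−0.95 ± 0.21, SE; 95% interval −1.39 to −0.50; limma adjusted p 0.509). Acute phase and complement genes had 3 of 19 lower, led by Hp and C2 (−0.55), a component of the classical pathway; C2 was higher than in Western-fed WT by 0.75 (limma adjusted p 0.0171). The count was 2 without WT normal replicate 3 and 5 without WT normal replicate 1. The lysosome list had 0 of 22 (median 0.00; 2 higher without EKO Western replicate 1), all 22 with intervals that exclude a 2-fold difference, and its cathepsins Ctsh and Ctsd stood at 0.26 and 0.19. Against Western-fed WT 6 of those 22 were lower.

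Extracellular matrix genes had the highest count of members at small p. Of 24 genes, 10 were lower and 0 higher (20 negative differences, median −0.23). The arrays did not overlap, on the lower side, for 10 of the 24, where 3.3% of all genes did so. Both counts come from the same values. Loxl1, an enzyme that crosslinks elastin, was 10.44, 10.49 and 10.54 in lean WT and 10.05, 9.88, 10.10 and 10.20 in Western-fed EKO (−0.43 ± 0.11, SE; 95% interval −0.66 to −0.20; limma adjusted p 0.607). Col4a1, a collagen of basement membranes, was 10.54, 10.85 and 10.72 against 10.04, 10.21, 10.33 and 10.34 (−0.47 ± 0.13, SE; limma adjusted p 0.809). Neither overlapped. The direct test against Western-fed WT had 13 of 24 lower and 0 higher, with Loxl1 at −0.40 and Col4a1 at −0.64 (limma adjusted p 0.0412 and 0.0104). The mean level of the 24 genes was 10.66 to 10.84 in lean WT, 10.39 to 10.62 in Western-fed EKO and 10.92 to 11.14 in Western-fed WT, so that Western-fed EKO lay lowest of these 3 groups, while normal-fed EKO spread from 10.37 to 11.05. The lowest count over the alternatives was 7. With array weights 5 members passed as lower (Col1a2, Col3a1, Col4a1, Lox and Loxl1), where 0.782% of all genes did.

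Matrix proteases and inhibitors had 2 of 17 lower, Mmp9 and Plau, urokinase (−0.63), with a median of −0.24, and 6 were lower than in Western-fed WT. Without WT normal replicate 1 there were 6 lower at the unadjusted threshold, and without WT normal replicate 3 the median was −0.12. TGF-beta and activin signalling had 5 of 20 lower. Tgfb3 was 10.14, 10.20 and 10.42 against 9.62, 9.52, 9.50 and 9.95, without overlap (−0.61 ± 0.16, SE; limma adjusted p 0.721), and Tgfb2 was −0.31. That count was 1 without WT normal replicate 3 and 3 without any of EKO Western replicates 1 to 3. Adipocyte progenitor genes had 1 of 13 lower (3 without WT normal replicate 2), Fap, a fibroblast surface protease (−0.37), which was also lower than in Western-fed WT by a tested −0.93 (limma adjusted p 0.00198); Mfap5, a microfibril protein, was −0.38 (95% interval −0.79 to 0.02).

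Genes of the mesothelium, the cell layer that covers the fat pad, had 6 of 14 lower and 0 higher, and all 14 differences were negative, with a median of −0.40. The surface keratin Krt19 was 9.38, 9.41 and 9.64 in lean WT and 8.93, 8.89, 8.63 and 8.96 in Western-fed EKO (−0.62 ± 0.17, SE; limma adjusted p 0.809). The uroplakin Upk1b was 10.47, 10.71 and 11.23 against 10.29, 9.89, 9.97 and 10.03 (−0.76 ± 0.20, SE; limma adjusted p 0.73). Both were without overlap. With array weights 6 members passed as lower (Upk1b, Wt1, Lrrn4, Krt19, Bnc1 and Muc16), where 0.782% of all genes did. Those weights favoured WT normal replicate 3 (2.75 against 0.729 and 0.75), the array with the highest mean over the 14 genes. The count of 6 was 2 without WT normal replicate 3 or EKO Western replicate 3, 4 without EKO Western replicate 2, and 10 without WT normal replicate 2 or EKO Western replicate 1, and the median was −0.21 without WT normal replicate 3. Over the 14 genes the mean level was 9.76 to 10.27 in lean WT, 9.48 to 9.77 in Western-fed EKO, 9.26 to 9.80 in normal-fed EKO and 8.99 to 9.13 in Western-fed WT. How much of the surface layer came with each dissected pad was not measured.

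Among vessel genes, the endothelium list had 2 of 20 lower, Thbd and Lyve1 (0 without WT normal replicate 3), and a median of 0.03, while smooth muscle and pericytes had 2 of 13 lower (4 without WT normal replicate 1 or EKO Western replicate 4). The pericyte regulator Rgs5 was 11.67, 11.23 and 11.45 against 10.75, 10.45, 11.09 and 11.10, and smooth muscle actin, Acta2, was 12.29, 12.20 and 12.22 against 11.99, 11.36, 11.77 and 12.09. Neither overlapped (−0.60 and −0.44; limma adjusted p 0.981 for both). Lists of neighbouring tissues had few members at small p. The epididymis and testis lists had 0 of 13 each, with Lcn8 and Akap4 at background, Ros1 at 0.24 and Prm2 at 0.15. Skeletal muscle genes had 1 of 14 lower, Actn3 (−0.30), and Acta1 stood at −0.28, while 10 of the 14 differences were positive (median 0.04). Red blood cell genes, of which 4 of 11 were measured, had 0, with Alas2 at 0.22 and Epb42 at background.

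Cell state lists closed the comparison. Dividing cell genes had 0 of 15 in either direction and a median of 0.01, and all 15 intervals excluded a 2-fold difference; Ccnb2 was 0.20 and Plk1 −0.23. Against Western-fed WT 12 of the 15 were lower, Ccnb2 by −0.96 and Plk1 by −1.10 (limma adjusted p 0.00373 and 0.00219). Immediate early and heat shock genes had 5 of 17 lower and 16 negative differences, with a median of −0.48. Dusp1, a phosphatase that ends MAP kinase signals, was 11.77, 12.48 and 11.42 against 11.01, 10.48, 11.14 and 11.19 (−0.94; limma adjusted p 0.809). Without WT normal replicate 2 the median was −0.02 and the count 3, and without WT normal replicate 1 or 3 the count was 13 or 10, so that this list's values turned on the single array whose mean over the 17 genes was 10.18.

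The unfolded protein and stress response list had 1 of 17 higher, the asparagine synthetase Asns, with 10 negative differences and a median of −0.01. Asns was 11.87, 12.02 and 12.02 against 12.23, 12.18, 12.21 and 12.21 (0.24; 95% interval 0.02 to 0.45). It was 1.06 above Western-fed WT (limma adjusted p 4.62e-05). Chac1 stood at 0.22. Antioxidant genes had 1 of 19 higher, the peroxiredoxin Prdx1 (0.27), and Nqo1 stood at −0.30. Of 16 circadian clock genes 1 was lower, Rora (−0.25), and Bhlhe41 was uneven, from 7.54 to 9.54 in EKO. Iron handling had 0 of 16, with the haemochromatosis gene Hfe at −0.40 (95% interval −0.82 to 0.02) and the ferrireductase Steap3 at −0.25. In the sphingolipid synthesis list 2 of 16 were lower (4 without EKO Western replicate 3). The sphingomyelinase Smpd3 was 9.54, 10.08 and 10.16 against 9.10, 9.28, 9.20 and 9.34 (−0.69 ± 0.17, SE; limma adjusted p 0.599), and the ceramide synthase Cers6 was 10.29, 10.66 and 10.84 against 9.81, 10.12, 10.03 and 10.02 (−0.60 ± 0.16, SE; limma adjusted p 0.795), both without overlap. Carboxylesterases had 1 of 13 lower, Ces2g (−0.44), while 11 of the 13 differences were positive (median 0.09).

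**Figure D4:**
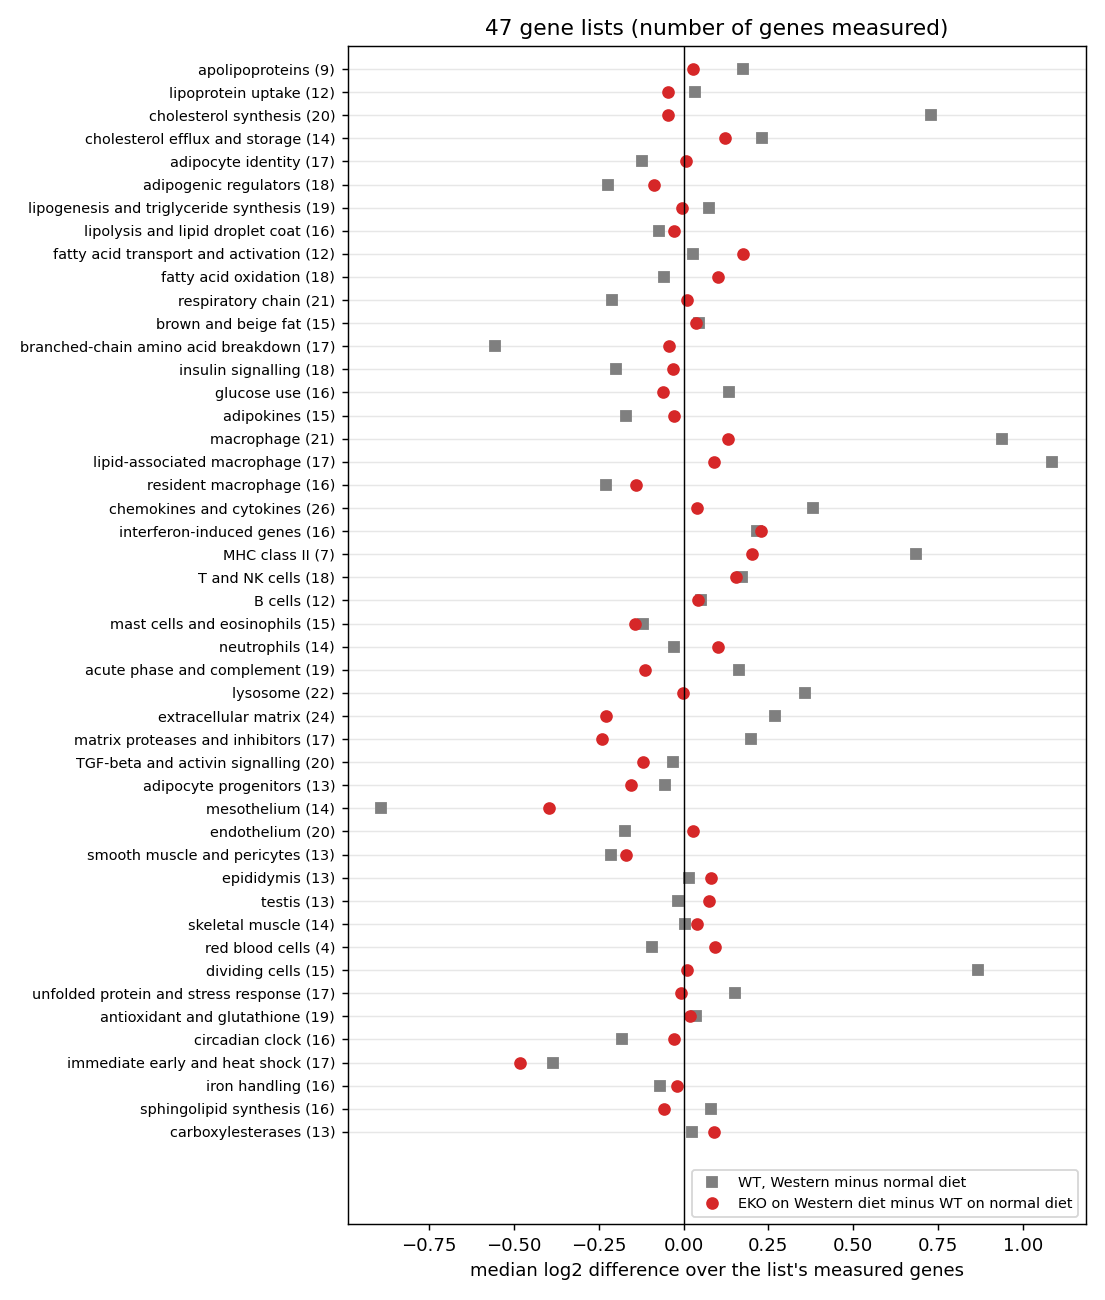
Median log2 difference over the measured genes of 47 gene lists (number of genes in brackets): Western-fed EKO minus normal-fed WT (red circles) and Western-fed minus normal-fed WT (grey squares), both against the same normal-fed WT arrays. The red medians run from −0.48 (immediate early and heat shock) and −0.40 (mesothelium) to 0.23 (interferon-induced genes); the dividing cell median is 0.01 and the lipid-associated macrophage median 0.09.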

How the data were processed

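RNA from 14 epididymal fat pads was hybridised to Affymetrix whole-transcript arrays. The authors deposited a table of log2 values, and the submitters' processing notes name RMA as the tool, without a version. RMA makes the arrays' overall brightness alike, so a shift shared by most genes would not be seen. Its settings are not stated in the labels or the table. Depth has no meaning for arrays, and the number of animals limits the precision.

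Of 34760 probe sets, 21640 have 1 gene symbol in the platform annotation (1321 have several and 11799 none, and these were not named), and 21553 matched the reference table by Entrez ID. The brightest set of each gene was kept (19937 genes). One mean per group was fitted to all 14 arrays in limma 3.58.1 (R 4.3.3; lmFit, eBayes, 10 residual degrees of freedom), and the threshold was 0.05 on the 2-sided p adjusted by Benjamini and Hochberg over all genes. Intervals are 95% and per gene. Replicate numbers did not pair the samples. The fit was tested on simulated data with independent noise for each gene and array. Those data hold no array-wide shifts, so they do not bear on how single arrays or array weights move the counts. Alternatives were fits of the compared arrays alone, leaving out each array, a replicate block, other normalizations, priors, filters, array weights and the array background. Within a group, correlations between arrays were 0.976 to 0.995.

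The members and the 48 gene lists (780 of 842 entries measured; 47 by role and 1 of diet genes) were chosen with earlier results of these data known. Genes are named by a rule: Apoe, Lep and Nnt; the 5 of smallest p in each direction; the diet genes; and in each list the 2 members of smallest p, predicted genes, small RNAs and receptors of smell and antigen passed over. Genes past 2-fold, and those that passed with array weights, were named after their values were seen.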

Additional observations from a re-analysis of the deposited data

Results flagged for a closer look

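In the 4 Western-fed EKO arrays, 5 of the 119 named genes had 1 array whose gap to the others exceeded Dixon's 95% critical value, about as many as the 1 in 20 that chance gives. The arrays were replicate 1 for Hspb6 (11.77), Lctl (9.42) and Scd2 (11.94), replicate 2 for Ccr1 (6.55) and replicate 4 for Foxo1 (11.03).

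For 13 of the 119 named genes the diet effect in EKO minus that in WT passed the interaction test (limma adjusted p under 0.05 over all genes). The share of all genes that passed this test is not given here, so the 13 cannot be read against a background. It was positive for Adgrg2 (1.87), Agt (1.36), Asns (0.82), Ces1f (2.17), Dennd2d (1.62) and Pck1 (1.66), and negative for Atp6v0d2 (−3.20), Cdkl4 (−2.99), Gpr50 (−2.28), Itgax (−2.09), Mki67 (−1.30), Saa3 (−2.44) and Timp1 (−1.97). Of these 13, 12 belong to the diet genes chosen for their movement in WT, so for them the interaction is no independent evidence.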

How the results depend on the processing

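For Western-fed EKO against normal-fed WT, where 1 gene passed, the count was 1 to 2 with 1 array left out (2 without WT normal replicate 1), 1 with the replicate block, 2 in a fit of the compared arrays alone, with the array background as a block and as a covariate, 3 in the arrays of lower background and 256 with array weights. Of the 118 named genes that did not pass, 36 passed in at least 1 of 19 alternatives. All 36 passed with array weights, the fit in which 0.502% of all genes passed as higher and 0.782% as lower. Of the 36, only Apod, Hp, Thbd and Tpsb2 also passed in any other alternative. For 103 of the 118 the difference kept its sign in every alternative that held the gene. For some of them that was 17 or 18 fits, since the filters on dim genes left them out. Apoe, the only named gene that passed, kept its sign too. For Western-fed EKO against Western-fed WT (1134), the count was 316 to 2108 with 1 array left out, 1845 after quantile normalization, 2033 and 1981 with background as block and covariate, and 6789 with array weights. For Western-fed against normal-fed EKO (0), it was 0 to 4 with 1 array left out, 1 with the replicate block, 1 with the background covariate and 8 with array weights. For normal-fed EKO against normal-fed WT (1), it was 1 to 3 with 1 array left out and 2 with the replicate block, trend and robust prior, array weights, either filter on dim genes (the dimmest 25% or 50%), background block and lower background. For Western-fed against normal-fed WT (1094), it was 415 to 1514 with 1 array left out, 479 in the compared arrays alone, 1735 after quantile normalization, 2007, 2152 and 2076 with background block, lower background and background covariate, and 5224 with array weights. The cause of these moves was not tested.

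Same-numbered arrays of the compared groups had correlations of their deviations from the group means of 0.33, 0.35 and −0.26, so the replicate block rests on the numbers alone. With 4 against 3 arrays the median standard error was 0.12, and for 98.7% of genes the interval excluded a 2-fold difference. That share was 95.7% against Western-fed WT. Probe sets at array background, such as those of Mrgprb1, Ccr1 and Ncr1, limit what can be said of low genes.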

Other observations

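The 13120 probe sets with no symbol or several symbols were tested apart from the named genes. In Western-fed EKO against normal-fed WT, 0 of them passed (limma; smallest adjusted p 0.174), 568 had an unadjusted p under 0.05 (4.33%) and 29 differed by more than 2-fold.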
